A study of Drosophila melanogaster with 16 samples.

Results

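MicroRNA loci are the annotated genes of Drosophila melanogaster whose products are microRNA hairpins, and their chromatin accessibility was read from an ATAC-seq peak table of the adult female fat body. All genes whose symbol starts with mir- were taken from the RefSeq annotation of the dm6 assembly, in which let-7 is listed as mir-let7 and bantam as mir-ban. A peak was counted for a microRNA gene when its midpoint lay inside the gene or within 1000 bp of it. Of 262 microRNA genes, 260 have a position on a single chromosome, and 58 of these had such a peak. Because neighbouring hairpins can share a peak, these genes were covered by 57 of the 8069 peaks of the table. The other 204 genes, 2 of them without a single position, had none, which says only that no listed peak lies so near.

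The flies were w1118 virgin females, kept after eclosion for 25 days in their condition, and the fat body of 25 of them went into each library. The labels give 4 groups of 4 libraries: 11 °C with ethanol, 11 °C with S-methoprene, 25 °C with ethanol and 25 °C with S-methoprene, where S-methoprene is a synthetic analog of juvenile hormone given at 39.4 mM as vapour and ethanol is its vehicle. At 11 °C females enter a reproductive arrest called diapause, and only flies with the ovary state meant for their group were used: regressed ovaries at 11 °C with ethanol, large ovaries in the other 3 groups. The comparison below sets 11 °C against 25 °C as in the authors' deposited table, which gives a mean number of normalised reads per peak and temperature, a fitted fold change and its FDR (false discovery rate), but no value per library, so no standard error and no depth per library can be given. Its overall means weigh 25 °C against 11 °C as 3 to 4, which 3 and 4 or 6 and 8 libraries would give. Which drug groups these were is not stated, nor whether the libraries of a group came from separately raised flies, so the spread behind each FDR may be technical in part. With flies chosen by their ovaries, temperature and ovary state cannot be told apart in full.

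A microRNA is cut from a hairpin in a longer primary transcript, first by Drosha with its partner Pasha in the nucleus and then by Dicer-1 in the cytoplasm, and is loaded into Argonaute 1, where it lowers the translation and stability of mRNAs that match its seed. In the fly, many hairpins lie in introns of protein-coding genes, and others have long noncoding primary transcripts of their own. Several act on growth and metabolism: mir-278 and mir-14 are known from mutants with altered fat stores, mir-8 from its control of body growth through the fat body, and bantam from its promotion of growth and survival. An ATAC peak near a hairpin measures open chromatin there and not the amount of microRNA, and the start of the primary transcript can be far away.

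Accessibility differed between the temperatures at 7 of the 57 peaks. It was lower at 11 °C at the peaks of mir-278, of the let-7 complex (mir-let7, mir-100 and mir-125, which share 1 peak), of mir-3642 and of mir-4950, and higher at 11 °C at those of mir-1016, mir-9377 and mir-9378. A peak was called when the FDR in the authors' deposited table was under 0.05. The 7 called peaks are 12.3% of the 57, against 22.2% of all 8069 peaks. By direction, 3 of the 57 peaks were higher at 11 °C (5.26%), against 10.0% of all peaks, and 4 were lower at 11 °C (7.02%), against 12.2% of all peaks. The share of called peaks at microRNA loci was thus below that of the table in both directions, and no test was made of that gap, since peaks are not replicates. At an FDR under 0.01 the peaks numbered 3 and 3, where 6.35% of all peaks were higher and 8.55% lower at 11 °C, and at an FDR under 0.1 they numbered 5 and 6, where 12.7% and 14.1% were.

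The size of the change was read as the log2 mean reads at 25 °C minus those at 11 °C, so that a negative difference means more open chromatin at 11 °C. It was computed here from the authors' means, while each FDR belongs to the authors' fitted fold change. Over the 57 peaks the differences ranged from -0.82 to 1.67, with a median of -0.03 and quartiles of -0.14 and 0.11. Over all peaks the median was -0.02, with quartiles of -0.17 and 0.16. The difference was below 0 in 34 (59.6%, against 53.3% of all peaks) and above 0 in 23 of the 57 peaks. Among the 50 peaks that were not called it lay between -0.25 and 0.44. All 57 peaks are 401 bp wide, so their reads can be compared with each other. The median peak at a microRNA gene held 176 reads, against 163 over all peaks, and the members ran from 30.9 to 688 mean reads.

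**Figure D1:**
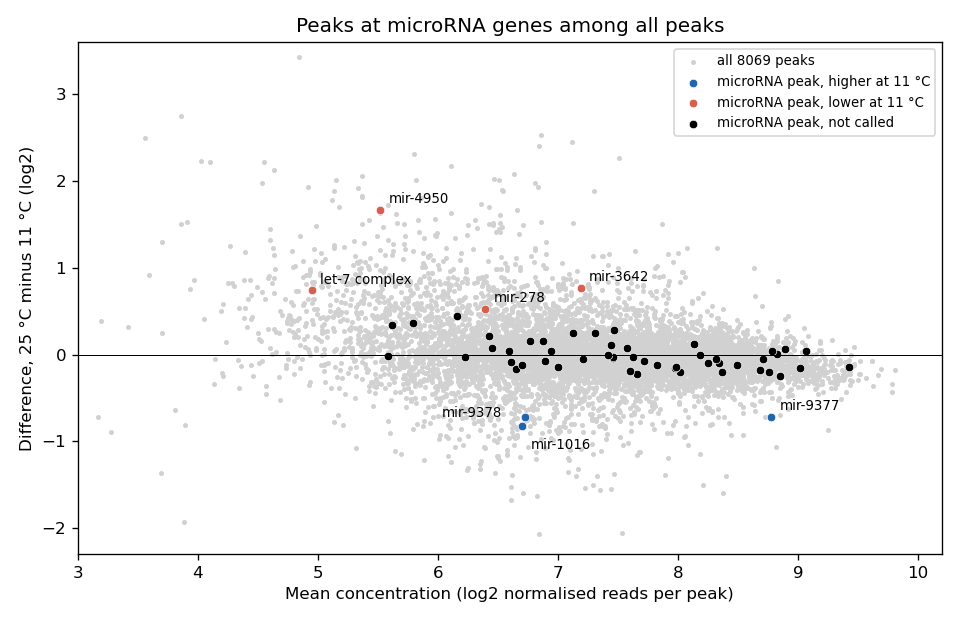
Difference between temperatures (25 °C minus 11 °C, log2, vertical axis) against mean concentration (log2 normalised reads, horizontal axis) for all 8069 peaks in grey and for the 57 peaks at microRNA genes, coloured by call. The 64 peaks with a mean concentration under 3 lie left of the axis. The 7 called peaks are named, and 3 of the 4 that were lower at 11 °C lie among weak peaks.

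The fat body can be checked in the same table by the genes that mark it. Of 12 fat body marker genes 11 had a peak (Fbp1 had none), with 3 of 30 peaks higher and 8 lower at 11 °C, and summed reads of 6621 at 11 °C and 7873 at 25 °C. All 8 lower peaks belong to apolpp, the gene of the main lipid carrier of the hemolymph, with 6, and to the yolk protein genes Yp1 and Yp3. In a split made after the values were seen, apolpp and the Yp genes summed to 1572 reads at 11 °C and 3368 at 25 °C, while the other 7 marker genes with peaks, among them srp, Lsd-2 and Ilp6 with the 3 higher peaks, summed to 5049 at 11 °C and 4504 at 25 °C. Of 8 muscle marker genes 1 had a peak, Mhc, which was lower at 11 °C with 22.0 reads at 11 °C and 52.6 at 25 °C. Hemocyte markers had a peak at 1 of 5 genes, with Hml, Pxn, eater and He at none, and that peak held 314 reads at 11 °C and 295 at 25 °C. Markers of oenocytes, the hydrocarbon-making cells that lie close to the fat body, had peaks at all 5 genes, and 8 of those 16 peaks were lower and 0 higher at 11 °C, with summed reads of 2950 at 11 °C and 3277 at 25 °C. Over all 8069 peaks, 10.0% were higher and 12.2% lower at 11 °C. Neuronal markers had peaks at 4 of 5 genes (nSyb had none), summing to 959 reads at 11 °C and 915 at 25 °C, with 1 peak of elav higher and 1 of para lower at 11 °C. Ovary and germline markers had peaks at 3 of 4 genes (osk had none), summing to 937 reads at 11 °C and 1094 at 25 °C, with 1 peak of tj lower at 11 °C. The part of other cell types in the results below was not tested, and in a dissected tissue fewer cells of a type and less open chromatin per cell cannot be told apart.

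Of the microRNAs with a known part in fat metabolism, mir-278 had a peak that was lower at 11 °C. This microRNA, which is needed for normal energy stores and insulin response in the fly and represses the growth regulator gene expanded, lies on 2R at 15657066 to 15657163 inside the annotated span of CG42524. Its peak, 789 bp from the hairpin at 15657752 to 15658152, held 70.8 reads at 11 °C and 102 at 25 °C, a difference of 0.53. The fitted log2 fold change (25 °C over 11 °C) was 0.44, with an FDR of 0.00378 in the authors' deposited table. The midpoint lies 634 bp from an end of fus, a splicing regulator gene, so the peak is shared with that gene. At the 5 other peaks of CG42524 the directions were mixed. The peaks 39375 and 8128 bp from mir-278 were lower at 11 °C, with differences of 0.79 and 0.96 (FDR 3.20e-06 and 1.08e-05 in the authors' deposited table). A peak 43208 bp away was higher at 11 °C (difference -0.27, FDR 0.0328 in the authors' deposited table). The peak nearest to the hairpin but one, 1980 bp away, had 39.3 reads at 11 °C and 38.4 at 25 °C (FDR 0.731 in the authors' deposited table).

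The let-7 complex also held a peak that was lower at 11 °C. It encodes 3 microRNAs in 1 primary transcript, lncRNA:let7C (2L, 18455717 to 18473132): mir-100, mir-let7 and mir-125, of which let-7 times the passage from juvenile to adult tissues. The peak over mir-let7 and mir-125, at 18472080 to 18472480, has its midpoint 35 bp from mir-125, 169 bp from mir-let7 and 747 bp from mir-100. It was the weakest of the 57, with 24.0 reads at 11 °C and 40.2 at 25 °C, a difference of 0.74. The fitted log2 fold change was 0.44, with an FDR of 0.0232 in the authors' deposited table. The peak was no longer called at an FDR under 0.01. Its midpoint also lies 684 bp from an end of CG10283.

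Farther along the same primary transcript the changes went both ways. A peak 11419 bp from the nearest hairpin held 117 reads at 11 °C and 215 at 25 °C, so it was lower at 11 °C (difference 0.88, FDR 2.48e-11 in the authors' deposited table). Another, 14294 bp away, held 287 reads at 11 °C and 214 at 25 °C in the authors' deposited table (difference -0.42, FDR 0.00266) and was thus higher at 11 °C. The peak across the lower coordinate end of lncRNA:let7C, the most open of its 5 peaks, held 408 reads at 11 °C and 424 at 25 °C (FDR 0.760 in the authors' deposited table), and a peak 9782 bp from mir-100 had 190 reads at 11 °C and 216 at 25 °C and was not called either.

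Bantam, which promotes growth and blocks cell death by repressing hid, had no peak within 1000 bp, but its nearest peak was called. The hairpin mir-ban lies on 3L at 642208 to 642288, inside lncRNA:CR43334 (628435 to 643900), which the annotation also lists as pri-bantam. All 3 peaks of this transcript were higher at 11 °C. The peak across its lower coordinate end, at 628136 to 628536, held 582 reads at 11 °C and 278 at 25 °C, with a difference of -1.06, a fitted change of 2.00-fold and an FDR of 2.58e-12 in the authors' deposited table. The peak nearest to the hairpin, 2666 bp from it, held 108 reads at 11 °C and 51.5 at 25 °C (difference -1.07, FDR 2.15e-10 in the authors' deposited table). The peak between them, 8101 bp from the hairpin, held 88.6 reads at 11 °C and 57.3 at 25 °C (difference -0.63, FDR 0.0118 in the authors' deposited table). That all peaks of this transcript would be described was decided after the values were seen.

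**Figure D2:**
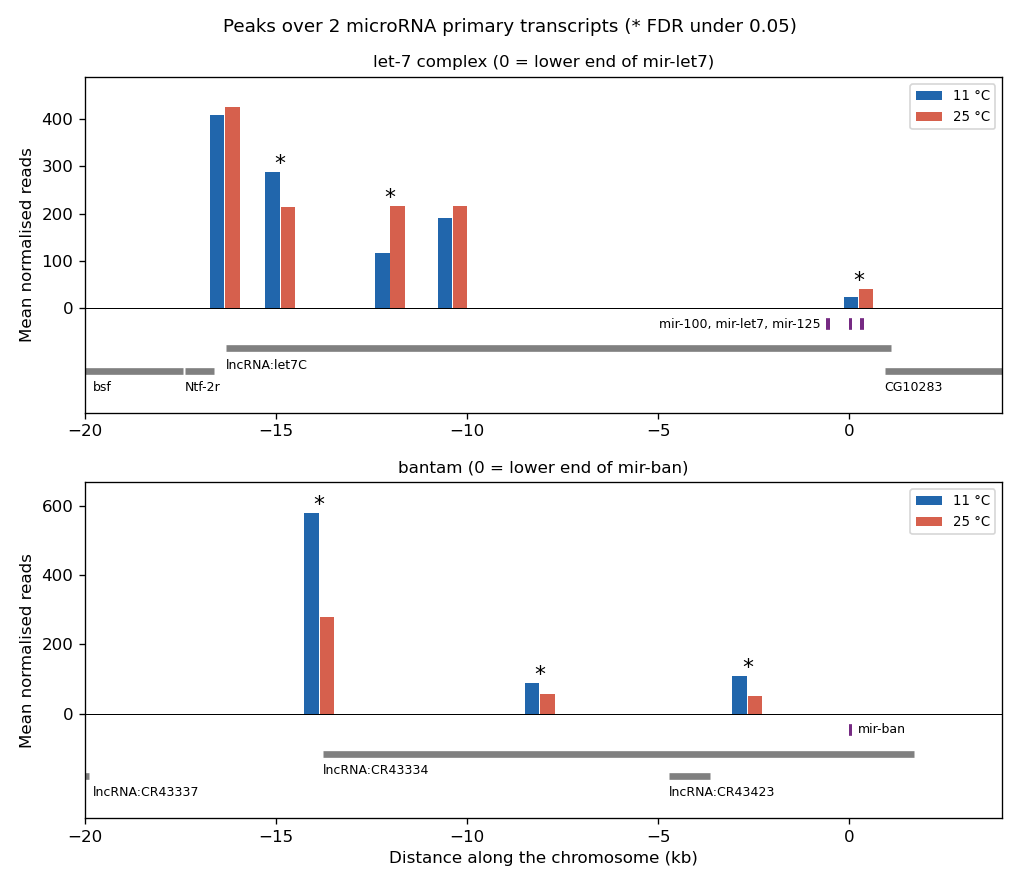
Mean normalised reads (vertical axis) at 11 °C and 25 °C of every peak around the let-7 complex and around bantam, by distance along the chromosome from the lower end of mir-let7 or mir-ban in kb, with genes as grey bars and hairpins in purple below. Stars mark an FDR under 0.05: the 3 bantam peaks are all higher at 11 °C, and the 3 starred peaks of the let-7 complex differ in direction.

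The other microRNAs with known roles in growth and metabolism had peaks that were not called. The mir-14 peak, 969 bp from the hairpin at the end of lncRNA:CR43651, was the most open of the 57, with 716 reads at 11 °C and 650 at 25 °C (difference -0.14, FDR 0.464 in the authors' deposited table); mir-14 limits fat stores and cell death in the fly. The peak of mir-8 held 433 reads at 11 °C and 448 at 25 °C (difference 0.05, FDR 0.749 in the authors' deposited table). Its primary transcript lncRNA:CR43650 holds 4 peaks, which had differences from -0.07 to 0.12 and were not called. For mir-277, a regulator of branched-chain amino acid breakdown, the peak held 168 reads at 11 °C and 182 at 25 °C (FDR 0.506 in the authors' deposited table). The same peak lies 1288 bp from mir-34, known from ageing of the fly brain, which shares the transcript lncRNA:CR43459. The peak shared by mir-275 and mir-305 held 215 reads at 11 °C and 204 at 25 °C (FDR 0.813 in the authors' deposited table), with its midpoint 88 bp from an end of muc.

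A further 3 of the microRNAs named for their roles had a peak. The peak of mir-279, which acts in the development of sensory neurons, held 495 reads at 11 °C and 416 at 25 °C (difference -0.25, FDR 0.0949 in the authors' deposited table). That was the most negative difference among the peaks not called. For mir-184, known from female germline development, the peak over the hairpin held 129 reads at 11 °C and 153 at 25 °C (FDR 0.205 in the authors' deposited table). Of the 3 other peaks of its transcript lncRNA:CR44206, 1 was lower at 11 °C (difference 0.45, FDR 0.00824 in the authors' deposited table), 1 higher (-0.30, FDR 0.0216) and 1 not called. The peak of mir-994 held 112 reads at 11 °C and 125 at 25 °C (FDR 0.524 in the authors' deposited table), and lies 6 bp from an end of CG6325.

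**Figure D3:**
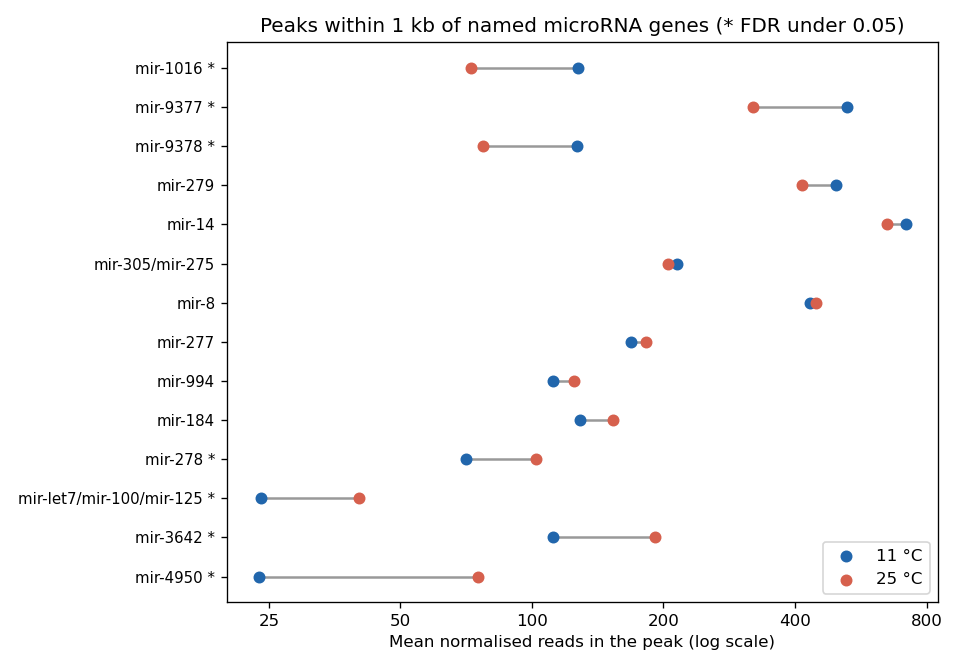
Mean normalised reads (log scale, horizontal axis) at 11 °C and 25 °C of the peaks that were called and of those within 1000 bp of microRNA genes named for their roles, ordered from the most negative difference at the top. Stars mark an FDR under 0.05: 3 starred peaks at the top are higher and 4 at the bottom lower at 11 °C, and the 7 between them are not called.

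Of the 28 microRNA genes named for their roles, 16 had no peak within 1000 bp. The nearest peak was 1011 bp away for mir-318, 1297 bp for mir-276a, 1682 bp for mir-317 and 3169 bp for mir-33, which lies inside SREBP, the gene of the main activator of fatty acid synthesis. Farther out were those of mir-310 (3957 bp), mir-989 (4385 bp), mir-276b (5359 bp), mir-7 (9217 bp), mir-9a (12821 bp) and mir-iab-4 (13148 bp). The microRNAs of muscle, mir-1 and mir-133, and of neurons, mir-124, had their nearest peak 24067, 21900 and 25823 bp away, and mir-958 47926 bp away. Apart from bantam, 1 of these nearest peaks was called, that of mir-276b, with 327 reads at 11 °C and 407 at 25 °C (difference 0.32, FDR 0.0138 in the authors' deposited table).

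The 3 peaks that were higher at 11 °C all lay in the body of a protein-coding gene that contains the hairpin. The peak near mir-1016, on 2R at 14232659 to 14233059 and 271 bp from the hairpin, lies in Opa1, the gene of a GTPase that fuses inner mitochondrial membranes. It held 128 reads at 11 °C and 72.4 at 25 °C, with a difference of -0.82 and an FDR of 2.26e-06 in the authors' deposited table. The hairpin of mir-1016 is a mirtron, a short intron that enters the pathway by splicing instead of cutting by Drosha. The only other peak of Opa1 held 128 reads at 11 °C and 114 at 25 °C and was not called (FDR 0.503 in the authors' deposited table).

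The peak with its midpoint inside mir-9377, on X at 12665032 to 12665432, lies in Tis11, whose protein binds AU-rich elements in mRNAs and speeds their decay. It held 526 reads at 11 °C and 321 at 25 °C (difference -0.71, FDR 9.98e-08 in the authors' deposited table). A second peak 950 bp from the hairpin held 215 reads at 11 °C and 185 at 25 °C and was not called. Elsewhere in Tis11 the called peaks went the other way: those 6551, 8829 and 17363 bp from the hairpin were lower at 11 °C, with differences of 0.83, 1.01 and 0.62 (FDR 2.64e-09, 1.27e-08 and 0.00603 in the authors' deposited table). The remaining 3 of its 8 peaks had differences of 0.02 to 0.09. The peak near mir-9378 (2L, 10752535 to 10752935, 797 bp from the hairpin) lies in CG17124 and held 127 reads at 11 °C and 77.4 at 25 °C (difference -0.71, FDR 2.12e-05 in the authors' deposited table). At the other 3 peaks of CG17124, which were not called, the differences ranged from -0.38 to 0.25.

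The remaining peaks that were lower at 11 °C lay at mir-3642 and mir-4950. That of mir-3642, on 3L at 11629502 to 11629902 and 122 bp from the hairpin, lies inside Apt1, an acyl-protein thioesterase gene. It held 112 reads at 11 °C and 191 at 25 °C (difference 0.77, FDR 5.99e-09 in the authors' deposited table), while the 2 other peaks of Apt1, 1433 and 1311 bp from the hairpin, had differences of 0.19 and 0.07 and were not called. The peak with its midpoint inside mir-4950, on 3R at 7451339 to 7451739, had the largest difference of the 57, with 23.8 reads at 11 °C and 75.4 at 25 °C (difference 1.67, fitted log2 fold change 1.11, FDR 0.00102 in the authors' deposited table). Its midpoint is 170 bp from an end of tRNA:Val-CAC-2-1, and tRNA:Val-CAC-2-2 is within 1000 bp. Genes of this kind have near-identical copies, and the sources used here do not say how multiply mapped reads were counted.

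Where a peak lay relative to other genes went with whether it was called. Every one of the 57 peaks lay in or within 1000 bp of a gene that is no microRNA, 27 of them of several. Of the 37 whose midpoint was within 500 bp of an end of such a gene, 1 was called (2.70%), the peak beside the tRNA genes, against 15.3% of all peaks at gene ends. Of the 19 in gene bodies away from ends, 6 were called (31.6%), against 33.0% of all gene-body peaks. The lone intergenic member was not called. Gene ends made up 64.9% of the members and 62.8% of all peaks, so by place the members' lower share of calls lay among their gene-end peaks. No test was made of this split.

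In the lowest and highest quartile classes of mean reads the direction went with read level, as it did in the whole table. Of the 11 members in the lowest class, 9 had a difference above 0, as had 1276 of all 2018 peaks there. Of these 11, 3 were called, all lower at 11 °C, where 7.83% of all peaks were higher and 24.2% lower. In the highest class 14 of 19 members (73.7%) had a difference below 0, against 70.5% of all peaks there. Of these 19, 1 was called, mir-9377, higher at 11 °C, where 12.7% of all peaks were higher and 3.87% lower. In the second lowest class 2 of 14 members were higher at 11 °C, mir-1016 and mir-9378, and 1 was lower, mir-3642. Of all peaks in that class, 11.1% were higher and 12.6% lower. None of the 13 members in the remaining class was called, against 16.3% of all peaks there. Of the 5 weakest members the let-7 complex and mir-4950 were called and the other 3 were not: mir-4909 in CG1941, near the triglyceride synthesis gene Dgat2, held 48.2 reads at 11 °C and 47.7 at 25 °C. The peak of mir-308, in the ribosomal protein gene RpS23, held 43.9 reads at 11 °C and 55.8 at 25 °C (FDR 0.109 in the authors' deposited table), and that of mir-3641 held 49.2 reads at 11 °C and 63.6 at 25 °C. Of the most open members after mir-14, mir-9388 held 532 reads at 11 °C and 546 at 25 °C, mir-4968 held 543 at 11 °C and 489 at 25 °C, and mir-282 held 468 at 11 °C and 487 at 25 °C. The highest class held 33.3% of the members and 25.0% of all peaks, and 16.6% of all peaks there were called. The lowest class held 19.3% of the members and 25.0% of all peaks, and 32.1% of all peaks there were called. The part of read level in the called differences and in the members' share of calls was not tested. By chromosome, the share of members with a difference below 0 lay on both sides of that of all peaks. It was 11 of 13 on X (84.6%, against 56.3% of all X peaks) and 5 of 7 on 2L (71.4%, against 54.6%), but 3 of 10 on 3L, against 52.8% of all 3L peaks. On 2R it was 9 of 16 (56.2%, against 51.4%) and on 3R 6 of 11 (54.5%, against 52.5%).

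By kind of gene around the hairpin, 166 placed microRNA genes lie within a protein-coding gene, 43 within noncoding genes alone and 51 in neither; 36 (21.7%), 10 (23.3%) and 12 (23.5%) of these had a peak. Peaks of the first kind numbered 39, with 3 higher and 2 lower at 11 °C (12.8% called) and a median difference of -0.05. Those of the second kind numbered 8, with 0 higher and 1 lower (12.5%), the let-7 complex, and a median of 0.05. Those of the third numbered 11, with 0 higher and 1 lower (9.09%), mir-4950, and a median of -0.03. Of all peaks 22.2% were called, with 10.0% higher and 12.2% lower at 11 °C. One peak serves hairpins of different kinds and is counted in each. Compared with other short genes, 22.3% of microRNA genes had a peak within 1000 bp, against 31.6% of snoRNA genes and 71.0% of tRNA genes; for lncRNA genes it was 17.9%, and for protein-coding genes, which are far longer, 59.4%. Of the 14 mirtrons mir-1003 to mir-1016, a set formed after the values were seen, 3 had a peak, and that of mir-1016 was the called one; mir-1003 and mir-1008 had differences of -0.17 and 0.21.

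The host genes were then described over all their peaks, a step also chosen after the values were seen. Protein-coding hosts numbered 148, and 123 of them had 309 peaks in all, of which 34 were higher and 41 lower at 11 °C (24.3%, against 22.2% of all peaks). Noncoding hosts numbered 40, of which 17 had 41 peaks, 8 higher and 5 lower (31.7%). Of those 8, 3 are the bantam peaks and 3 lie in lncRNA:CR43836, a long transcript around mir-31b. Those 3 had differences of -0.36, -0.38 and -0.46 (FDR 0.00957, 0.00365 and 0.000832 in the authors' deposited table) and lie 36648 to 54676 bp from the hairpin. The peaks given next, in mam, kis and E2f1, are examples and no ranking of the host genes. A large change far from a hairpin lay in mam, the gene of a Notch coactivator, 9986 bp from mir-4978, where a peak held 410 reads at 11 °C and 145 at 25 °C (difference -1.50, FDR 1.47e-31 in the authors' deposited table). In kis, a chromatin remodeler gene, a peak 20870 bp from mir-965 held 171 reads at 11 °C and 402 at 25 °C (difference 1.23, FDR 2.61e-27 in the authors' deposited table). In E2f1, the cell cycle factor gene that hosts mir-11 and mir-998, a peak 34942 bp away held 37.8 reads at 11 °C and 97.5 at 25 °C (difference 1.37, FDR 7.18e-15 in the authors' deposited table).

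The limit of 1000 bp left changed peaks just outside. The 3 members nearest to it, of mir-9380 (956 bp), mir-14 (969 bp) and mir-1003 (1000 bp), had differences of -0.01, -0.14 and -0.17. The 3 peaks next outside, of mir-1015 (1029 bp), mir-2494 (1051 bp) and mir-2497 (1054 bp), had differences of 0.85, 0.97 and 0.02, and the first pair had FDRs of 0.000117 and 3.90e-07 in the authors' deposited table. From 1000 to 2000 bp, 9 of 46 peaks were called (19.6%), with 2 higher and 7 lower at 11 °C. From 2000 to 5000 bp it was 18 of 113 (15.9%), with 12 higher and 6 lower, and from 5000 to 10000 bp 35 of 178 (19.7%), with 15 higher and 20 lower. Of all 8069 peaks 22.2% were called, with 10.0% higher and 12.2% lower at 11 °C. The called share of each bin was thus below that of the whole table. The median difference lay between -0.04 and 0.02 in all of these bins and within 1000 bp.

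**Figure D4:**
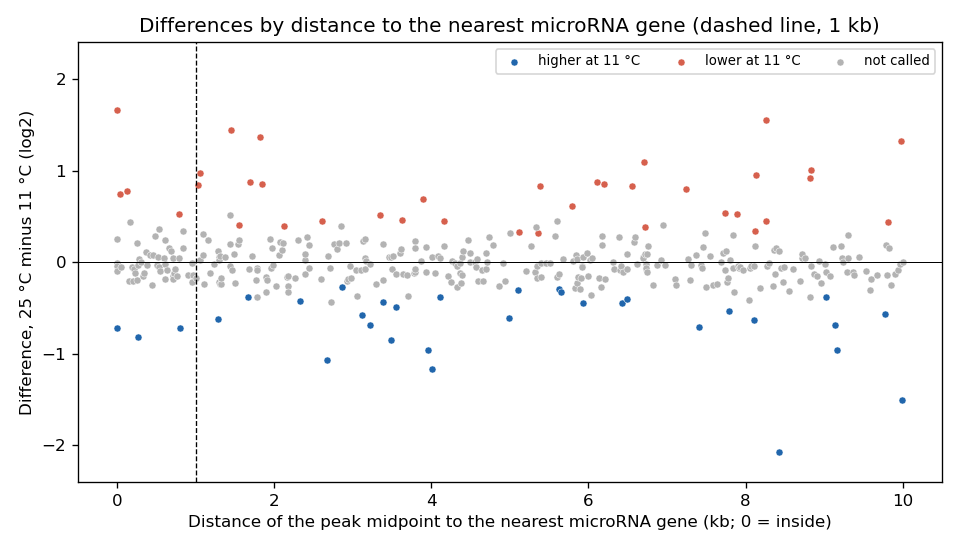
Difference between temperatures (25 °C minus 11 °C, log2, vertical axis) of every peak within 10000 bp of a microRNA gene, against the distance of its midpoint in kb, coloured by call. Called peaks of both directions occur at all distances, and a pair lower at 11 °C lies just right of the dashed line at 1000 bp.

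The genes that make and use microRNAs were looked at in the same way. The list also holds factors of the small interfering RNA (siRNA) pathway such as Dcr-2, so its counts are not of microRNA factors alone. Of 29 entries 27 matched a gene, and all 27 had a peak, 39 peaks in all. Of these, 4 were higher and 2 lower at 11 °C (15.4%, against 22.2% of all peaks), and the median difference was -0.09, against -0.02 over all peaks. Among factors of nuclear processing, Cbp80, the large subunit of the nuclear cap-binding complex, had 1 of 2 peaks higher at 11 °C. This peak held 250 reads at 11 °C and 145 at 25 °C (difference -0.78, FDR 3.83e-09 in the authors' deposited table) and also lies near CG3009. The other peak of Cbp80 held 183 reads at 11 °C and 192 at 25 °C and was not called. The peaks of drosha (141 reads at 11 °C and 113 at 25 °C) and pasha (123 reads at 11 °C and 122 at 25 °C), which form the Microprocessor, were not called.

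Among the dicing factors, loqs, the double-stranded RNA-binding partner of Dicer-1, had 178 reads at 11 °C and 129 at 25 °C (difference -0.46, FDR 0.00559 in the authors' deposited table), at a peak shared with Ing5. Dcr-2, the Dicer of the siRNA pathway, had 122 reads at 11 °C and 73.7 at 25 °C at 1 of 2 peaks (difference -0.73, FDR 0.000117 in the authors' deposited table), shared with Rab4. The peak of Dcr-1, the microRNA Dicer itself, held 93.5 reads at 11 °C and 104 at 25 °C and was not called (FDR 0.523 in the authors' deposited table). AGO1, the microRNA Argonaute, had 1 of 3 peaks lower at 11 °C, inside the gene, with 51.0 reads at 11 °C and 95.2 at 25 °C (difference 0.90, FDR 2.88e-08 in the authors' deposited table). The other 2 had differences of -0.14 and 0.03.

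None of the 10 peaks of the silencing and decay genes was called, gw, me31B, twin and Not1 among them. A difference below 0 was seen in 9 of the 10, against 53.3% of all peaks. That share of all peaks was 70.5% in the highest class of mean reads, where 3 of the 10 lie. It was 36.0% in the lowest class, where another 3 lie, and 57.4% in the second highest class, which holds the others. The DiffBind FDR in the authors' deposited table was 0.181 or higher at these peaks, and 0 of them had an unadjusted p-value under 0.05 there. Of the TRIM-NHL proteins, which repress mRNAs and act on the microRNA pathway in stem cell lineages, mei-P26 had a peak lower at 11 °C, with 27.2 reads at 11 °C and 57.1 at 25 °C (difference 1.07, FDR 7.05e-08 in the authors' deposited table). The other peak of mei-P26 held 396 reads at 11 °C and 384 at 25 °C and was not called. The related gene brat had a peak higher at 11 °C, with 258 reads at 11 °C and 164 at 25 °C (difference -0.65, FDR 2.28e-05 in the authors' deposited table). The other peak of brat held 233 reads at 11 °C and 206 at 25 °C and was not called.

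**Figure D5:**
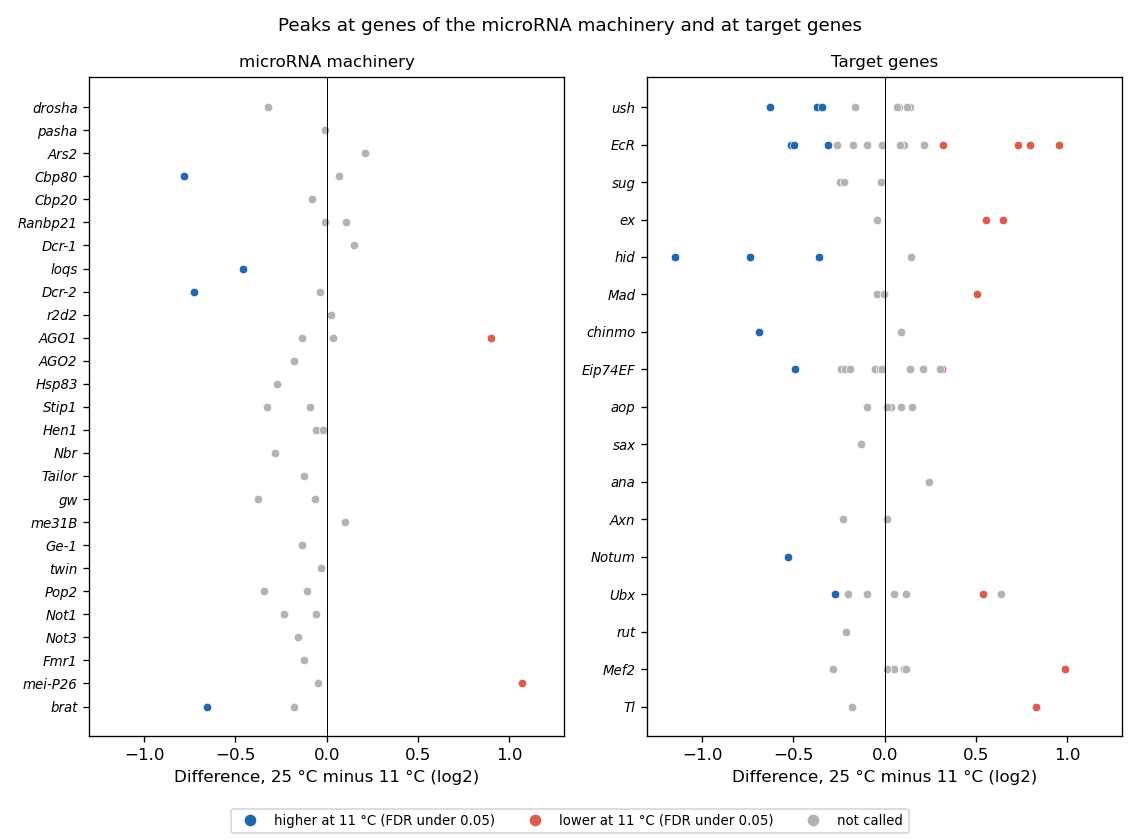
Difference between temperatures (25 °C minus 11 °C, log2, horizontal axis) of each peak at genes of the microRNA machinery (left) and at genes known as microRNA targets (right), 1 point per peak, coloured by call. The machinery list also holds siRNA factors such as Dcr-2. Of 39 machinery peaks 4 are higher and 2 lower at 11 °C, and hid and ush have called peaks higher at 11 °C while ex has called peaks lower at 11 °C.

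The share of called peaks was higher at genes known from fly genetics as targets of single microRNAs, and no test was made of that gap. Of 25 entries 24 matched a gene, and 17 of these had 75 peaks. Of the peaks, 13 were higher and 11 lower at 11 °C (32.0%, against 22.2% of all peaks), with a median difference of -0.01. Most of the 75 lay in gene bodies, where 33.0% of all peaks were called, against 15.3% at gene ends. The part of peak place in the gap was not tested. These genes include long developmental regulators such as EcR, the ecdysone receptor gene and a target of mir-14, which had 3 peaks higher and 4 lower at 11 °C of 14. The target of mir-278, ex, which encodes the Hippo pathway protein Expanded, had 2 of 3 peaks lower at 11 °C. The stronger of these held 231 reads at 11 °C and 363 at 25 °C (difference 0.65, FDR 7.01e-09 in the authors' deposited table). The weaker held 40.7 reads at 11 °C and 59.9 at 25 °C (difference 0.56, FDR 0.0125 in the authors' deposited table). The target of mir-8, ush, a cofactor of GATA factors, had 3 of 8 peaks higher and 0 lower at 11 °C, with differences of -0.63, -0.37 and -0.34 (FDR 0.00147, 0.00454 and 0.0344 in the authors' deposited table).

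The cell death gene hid, repressed by bantam, had 3 of 4 peaks higher at 11 °C. The most changed held 204 reads at 11 °C and 92.2 at 25 °C (difference -1.15, FDR 7.77e-12 in the authors' deposited table). The other called peaks of hid had differences of -0.74 and -0.36. Bantam's further target Mad, the transducer of BMP signals, had 1 of 3 peaks lower at 11 °C, with 40.0 reads at 11 °C and 56.9 at 25 °C (difference 0.51, FDR 0.0252 in the authors' deposited table). For let-7, the target chinmo, a temporal identity factor gene, had 1 of 2 peaks higher at 11 °C, with 171 reads at 11 °C and 107 at 25 °C (difference -0.69, FDR 3.66e-06 in the authors' deposited table). Its other target, ab, had no peak, nor had sens, nerfin-1, rpr, grim, skl or Dop1R1. Mef2, a target of mir-92a, had 1 of 6 peaks lower at 11 °C (difference 0.99, FDR 0.000572 in the authors' deposited table). That peak was weak, with 21.5 reads at 11 °C and 42.6 at 25 °C. Tl, a target of mir-958, had 1 of 2 peaks lower at 11 °C (difference 0.83, FDR 2.67e-08 in the authors' deposited table). Notum, an inhibitor of Wnt signals and a target of mir-315, had its only peak higher at 11 °C (difference -0.53, FDR 0.0066 in the authors' deposited table). Eip74EF, an ecdysone response gene and a target of mir-34, had 1 of 12 peaks higher and 1 lower at 11 °C. Ubx, a homeotic gene and a target of mir-iab-4, had 1 of 7 higher and 1 lower. Of the 17 genes 6 had peaks but none called. Whether accessibility at a microRNA and at its targets moves together was not tested.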

How the data were processed

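ATAC-seq libraries by the Omni-ATAC method were made from dissected fat body, 16 in 4 groups per the labels. Per the submitters' processing notes, the tools were bedtools, Bowtie2, cutadapt, DiffBind, FastQC, MACS2, Picard, SAMtools and Trim Galore, on build dm6, without versions or roles. Read shifting, duplicates, multiply mapped reads, peak merging and library scaling are not given in the sources used here; scaling can shift all differences by one factor.

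The authors' deposited table gives log2 concentrations (log2 mean normalised reads per peak), a fitted log2 fold change of 25 °C over 11 °C, and a p-value with its FDR, per the file headers. Its FDR equals a Benjamini-Hochberg adjustment over 8069 peaks to within 1.83e-15. The weight of 25 °C in the overall mean, 0.429, was computed from 3446 peaks whose concentrations differ by over 0.2. The fitted changes have a slope of 0.806 on the differences of concentration, and 256 peaks, of which 0 were called, differ in sign between them. Depth per library is unknown.

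Differences, distances, counts and medians were computed with Python 3.11.15, pandas 2.3.3 and numpy 2.4.6; no model was refitted and the authors' FDR is the only test. Gene spans come from a RefSeq gene table of Release 6 plus ISO1 MT, which has no strand or exons, so a host is a gene whose span contains the hairpin, on either strand. The assignment of peaks was tested on simulated data. Named genes are those with a called peak, 28 genes chosen for their roles, the 5 strongest and 5 weakest members, the machinery and target lists, and the peaks at the limit of 1000 bp. Sequences and motifs were not analysed here. Members and lists were chosen with earlier results of these data known. Entries that matched no gene are not reported here.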

Additional observations from a re-analysis of the deposited data

How the results depend on the processing

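Counts of called peaks are small, so single peaks move them. Of the 103 peaks within 2000 bp of a microRNA gene, 5 were higher and 11 lower at 11 °C. That called share is below that of all peaks (22.2%, with 10.0% higher and 12.2% lower). Of the 12 peaks that overlap the gene itself, 1 was higher and 3 were lower, a called share above the 22.2% of all peaks. At an FDR under 0.1, 5 of the 57 were higher and 6 lower at 11 °C, where 12.7% and 14.1% of all peaks were. Of the 46 peaks outside the lowest quartile class of mean reads, 3 were higher and 1 lower at 11 °C. In the second lowest, second highest and highest classes, 23.7%, 16.3% and 16.6% of all peaks were called. The share of the 46 was below each of these. Of the 29 peaks within 500 bp, 2 were higher and 3 lower, a called share below that of all peaks. Of the 20 peaks away from ends of other genes, 3 were higher and 3 lower. That called share is above that of all peaks but below the 33.0% of all gene-body peaks. An FDR under 0.01 and, chosen after seeing the data, leaving out the peak beside tRNA genes each gave 3 higher and 3 lower. The median difference of -0.03 kept its sign under all alternatives run: it was -0.074 without the lowest class, -0.085 without peaks near other gene ends, -0.0054 by the authors' fitted log2 fold change and -0.015 centred on the median of all peaks. The cause was not tested. Of the 22 named peaks, 0 of 7 called ones changed sign under another scaling or a pseudocount of 10 reads, and the let-7 complex was not called at an FDR under 0.01. No paired analysis was possible because replicates are not resolved in the table. For the same reason no library could be left out, and depth per library, which limits the weakest peaks, is unknown.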
